A study of Zea mays with 24 samples.

Results

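Abscisic acid (ABA) is the hormone through which drying leaves close their stomata and switch on protective genes. Its synthesis is limited in many tissues by 9-cis-epoxycarotenoid dioxygenases (NCEDs), plastid enzymes that cut a carotenoid to the ABA precursor xanthoxin, and it is perceived by soluble receptors of the PYR/PYL family, which bind clade A protein phosphatases 2C when ABA is present and so release SnRK2 kinases. *VP14* of maize, named after the viviparous mutant whose kernels germinate on the ear, was the founding member of the NCED family. The 3 genes described here are *NCED9* (GRMZM2G417954), *VP14* (GRMZM2G014392) and *PYL10* (GRMZM2G405064), taken by identifier from the 37467 genes listed in any of the 24 leaf libraries. All 3 genes passed the filter on low counts in each of the 3 sets of libraries. *NCED9* and *PYL10* had been singled out by the study from 2 of these sets, so their changes there are no independent evidence.

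Each set held 8 libraries, 2 for each of 4 groups, all labelled as leaf at the V4 stage, the seedling stage with 4 collared leaves. The first set held the inbred line W22 and *zmnf-ya1*, a mutant in the W22 background with a Mu transposon in *ZmNF-YA1*, which encodes the DNA-binding subunit of an NF-Y transcription factor. The second held the inbred line B104 and *ZmNF-YB16* OE, a B104 transgenic that overexpresses another NF-Y subunit. The third held the inbred line DH4866 and libraries labelled *ZmNF-YA1* OE, from a DH4866 transgenic whose construct is driven by the stress-responsive RD29A promoter. Every genotype was sampled under normal watering and under drought, the mutant and the *ZmNF-YB16* OE plants each from a single line, and each library of the first and second sets was made from leaves of several pooled plants. The study's methods give ear leaves of field plants after pollination for the B104 set, against the V4 seedling leaves in its labels, and describe no sequencing of the DH4866 set. Nothing states that the replicates of the third set came from separate plants, so its P values measure the spread between these libraries, which may be technical.

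Library totals were 20696448 to 21289711 expected counts in the W22 and DH4866 sets and 3429314 to 5608889 in the B104 set, so that counting error is larger in the latter. Markers of green C4 leaf were abundant in all libraries, with a summed FPKM of 12934.72 to 18401.95 for pyruvate phosphate dikinase in the W22 and DH4866 sets and 2871.43 to 10899.08 in the B104 set, whereas zein, a marker of kernels, summed to 13.03 to 38.05 and pollen allergens to 45.16 to 115.05. FPKM, a fragment count scaled to transcript length and to the mapped fragments of a library, is the scale of every level given below. The mutated gene, *ZmNF-YA1*, had an FPKM of 8.83 and 8.98 in unstressed W22 against 2.88 and 3.41 in the unstressed mutant, and of 3.78 and 4.32 against 3.30 and 3.13 under drought. By the edgeR test of the next paragraph the log2 difference was -1.16 (SE 0.12, adjusted P = 3.3e-06) under normal conditions. Under drought it was -0.30 (SE 0.13, adjusted P = 0.135), not past the test. The study reports mutant lines without transcripts of *ZmNF-YA1*. In the libraries labelled *ZmNF-YA1* OE it stood at 8.66 and 8.05 under normal conditions and 3.86 and 3.95 under drought, against 6.88 and 7.57 and then 3.73 and 4.56 in DH4866, differences of 0.10 (SE 0.09, adjusted P = 0.544) and -0.14 (SE 0.11, adjusted P = 0.424) on the log2 scale that did not pass the test described next. The label of that line thus had no counterpart in the level of the named gene, and its libraries are called by their label. The overexpressed *ZmNF-YB16* was not checked, since its identifier was not found here, so the label of that line stands untested.

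Fold changes are log2 values from edgeR's quasi-likelihood model with TMM normalization, fitted to all genes of a set, with the standard error (SE) and a P value adjusted by the method of Benjamini and Hochberg over all genes tested. The SE was derived from the test, as the absolute fold change over the square root of the F statistic. It can be smaller than a fitted one, at 0.11 for *NCED9* with drought in W22 against 0.19 from DESeq2. A gene is said to rise or fall where its adjusted P was below 0.05. Groups of 2 leave 0.333 as the smallest P that exact permutation of the libraries could reach, two-sided, for any 1 gene. Many genes passed the test in most comparisons, and the share of all tested genes that did is given beside the first count in each. Later counts of list genes are descriptions, to be read against the same shares. When libraries were scaled by their size alone, the median over all genes shifted on the log2 scale by -0.145 for drought in W22, 0.224 for drought in *zmnf-ya1*, -0.388 for *zmnf-ya1* against W22 under normal conditions, 0.365 for the difference of their drought responses, and 0.290 and 0.252 for drought in B104 and *ZmNF-YB16* OE. The other shifts stayed below 0.1.

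*NCED9* was induced by drought in W22. Its FPKM was 3.03 and 2.96 in unstressed W22 and 10.24 and 8.72 in drought-stressed W22. Both stressed libraries stood far above both controls, and the log2 fold change was 1.81 (SE 0.11, adjusted P = 8.72e-09). The mutant had 1.56 and 1.36 without stress and 2.68 and 2.84 with it. The mutant groups did not overlap either, but stressed mutant leaves only came close to the level of unstressed W22. The rise in the mutant was 0.69 (SE 0.15, adjusted P = 0.00183), and the drought response of the mutant was smaller than that of W22 by a tested difference of -1.12 (SE 0.20, adjusted P = 0.000553). With library size alone the rise was 0.91 and the difference of responses -0.75, and limma on log2(FPKM + 1) and log2(FPKM + 0.1) gave -0.77 and -0.75 for the latter. *NCED9* was lower in *zmnf-ya1* than in W22 under both conditions, by -0.63 (SE 0.15, adjusted P = 0.00352) under normal conditions and by -1.75 (SE 0.11, adjusted P = 2.39e-07) under drought. The difference under normal conditions was -1.03 with library size alone and -0.99 in limma on log2(FPKM + 0.1).

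*VP14* moved less than *NCED9* in W22, and in opposite directions in the 2 genotypes. It had an FPKM of 8.18 and 8.30 in normal W22 and 13.49 and 11.64 in stressed W22, a rise of 0.75 (SE 0.09, adjusted P = 4.05e-06). The mutant had 8.20 and 7.85 without stress and 7.20 and 6.98 with it, a fall of -0.41 (SE 0.09, adjusted P = 0.00196). That fall did not pass the test with library size alone (-0.18, adjusted P = 0.0953) or in limma on log2(FPKM + 1) (-0.16, adjusted P = 0.139). The difference of the drought responses was -1.16 (SE 0.13, adjusted P = 1.17e-05), and stressed mutant leaves were lower than stressed W22 leaves by -0.80 (SE 0.09, adjusted P = 2.75e-05). Under normal conditions the FPKM ranges of the genotypes overlapped. There the log2 fold change was 0.36 (SE 0.09, adjusted P = 0.00425) with TMM but -0.04 (adjusted P = 0.737) with library size alone, so that its sign depended on the scaling.

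*PYL10* also rose with drought in W22 and was already higher in the unstressed mutant. Its FPKM was 1.63 and 2.36 in normal W22 and 4.96 and 5.33 in stressed W22, a rise of 1.51 (SE 0.19, adjusted P = 8.62e-06). The mutant had 3.95 and 3.48 without stress and 4.42 in both libraries under drought. Normal W22 thus stood apart as the low group, and the mutant under either watering lay between the W22 groups. The mutant was above W22 by 1.30 (SE 0.20, adjusted P = 9.99e-05) under normal conditions. Its own drought response was 0.02 (SE 0.17, adjusted P = 0.925) and its difference from stressed W22 was -0.19 (SE 0.16, adjusted P = 0.472), neither past the test. The difference of the drought responses was -1.49 (SE 0.26, adjusted P = 0.000488). The FPKM ranges of the mutant groups did not overlap, however, and these sizes depend on the scaling. With library size alone the median over all genes shifted by 0.224 for drought in the mutant and by -0.388 for the mutant against W22 under normal conditions. For the difference of the responses the shift was 0.365.

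All 3 genes rose with drought in W22, in a comparison in which 34.8% of all tested genes were called higher and 33.8% lower. Of the 3, 1 rose and 1 fell with drought in *zmnf-ya1*, where 28.1% of genes were called higher and 29.6% lower. The drought response was lower in the mutant for 3 of 3, against 22.5% of all genes called lower and 15.3% higher. Between the genotypes, 2 were higher and 1 lower in the mutant under normal conditions (30.2% of all genes called higher, 23.4% lower), and 2 were lower under drought (9.79% called lower, 9.5% higher). With so few members these counts are only a description.

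**Figure D1:**
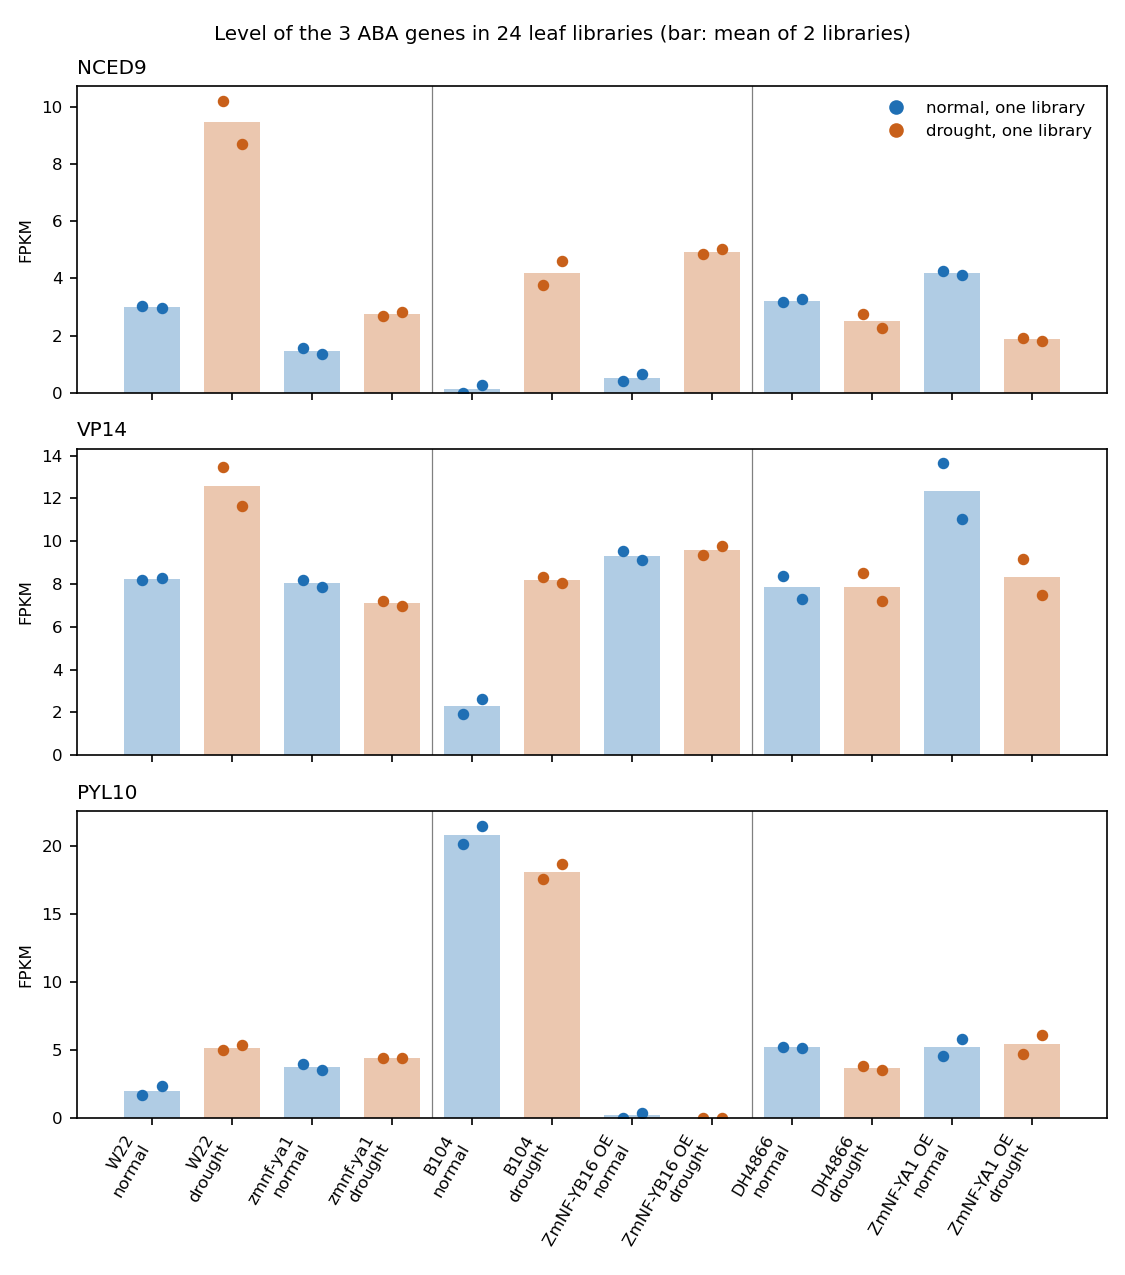
FPKM of *NCED9*, *VP14* and *PYL10* in the 24 libraries, with points for single libraries, bars for the mean of 2 libraries per group, and normal (blue) and drought (orange) conditions side by side. *NCED9* was highest in stressed W22 (10.24 and 8.72) and near 0 in unstressed B104, *VP14* was lowest in unstressed B104 (1.94 and 2.64), and *PYL10* was highest in B104 and near or at 0 in *ZmNF-YB16* OE.

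In the B104 set *NCED9* was close to absent from unstressed leaves and rose with drought in both genotypes. It was not listed in 1 normal B104 library and had an FPKM of 0.25 in the other, together 2 counts, against 3.77 and 4.63 under drought. The ratio of normalized counts was 34.99, with an exact 95% interval of 9.45 to 293 that covers counting error only, and the adjusted P of the rise was 3.54e-07. The fitted log2 fold change of 4.99 rests on these 2 counts and ran from 3.73 without the first to 8.60 without the second normal B104 library. In *ZmNF-YB16* OE the level was 0.39 and 0.64 under normal conditions and 4.85 and 5.04 under drought. The stressed groups of both genotypes were far above the unstressed ones, and the rise in *ZmNF-YB16* OE was 3.0 (SE 0.39, adjusted P = 1.64e-06). The genotypes did not pass the test under normal conditions, with 12 counts in *ZmNF-YB16* OE and 2 in B104, a ratio of 4.92 (exact 95% interval 1.09 to 45.2, adjusted P = 0.0714 from edgeR). Without the second normal B104 library, the only one of its group with counts, the adjusted P was 0.0135 for this difference and 0.0333 for that of the drought responses, which was otherwise 0.164. Under drought the genotypes differed by 0.19 (SE 0.26, adjusted P = 0.633).

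*VP14* rose with drought in B104 and was already high in unstressed *ZmNF-YB16* OE. The FPKM was 1.94 and 2.64 in normal B104 and 8.32 and 8.04 in stressed B104, a rise of 1.59 (SE 0.18, adjusted P = 3.20e-07). In *ZmNF-YB16* OE it was 9.54 and 9.12 under normal conditions and 9.34 and 9.79 under drought. The 2 groups of the transgenic overlapped and lay above both B104 groups, and unstressed B104 alone was low. *ZmNF-YB16* OE exceeded B104 by 1.99 (SE 0.18, adjusted P = 2.79e-08) under normal conditions and by 0.18 (SE 0.13, adjusted P = 0.343) under drought. The drought response in *ZmNF-YB16* OE was -0.22 (SE 0.13, adjusted P = 0.167), with a sign that turned to 0.03 under scaling by library size alone. Its difference from the response of B104 was -1.81 (SE 0.23, adjusted P = 7.78e-06).

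*PYL10* separated the genotypes of this set under both conditions. Its FPKM was 20.19 and 21.52 in normal B104 and 17.56 and 18.70 in stressed B104, the highest levels in the series. In *ZmNF-YB16* OE it was not listed in 1 normal library, stood at 0.32 in the other, and was not listed in either stressed library. In counts, normal B104 had 185 and normal *ZmNF-YB16* OE had 1, a ratio of 226 with an exact 95% interval of 40.0 to 8968 for counting error (adjusted P = 1.76e-10). Under drought B104 had 197 counts and *ZmNF-YB16* OE had 0, which allows up to 3 counts over the group, or a normalized CPM of 0.254, so that *PYL10* was at least 66.9-fold higher in B104 (adjusted P = 1.86e-10). No drought response of *PYL10* in *ZmNF-YB16* OE can be given from so few counts, nor a difference of responses. In B104 the drought groups did not overlap and the fall was -0.48 (SE 0.19, adjusted P = 0.0359). That call was lost with library size alone (-0.19, adjusted P = 0.397), with DESeq2 (-0.49, adjusted P = 0.275), and without any 1 of the 4 B104 libraries (-0.51 and -0.45 without a normal library, -0.44 and -0.52 without a stressed one, adjusted P 0.0914 to 0.161).

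Of the 3 genes, 2 rose and 1 fell with drought in B104, where 25.3% of all tested genes were called higher and 25.9% lower. Of the 2 with a value in *ZmNF-YB16* OE, 1 rose with drought (25.5% called higher, 25.7% lower). Between the genotypes 1 was higher and 1 lower in *ZmNF-YB16* OE under normal conditions (14.6% called higher, 15.7% lower), and 1 was lower under drought (16% called higher, 15.9% lower). The drought response was lower in *ZmNF-YB16* OE for 1 of 2 (8.57% called lower, 9.13% higher). The green-leaf markers of this set moved strongly with drought. Summed FPKM of phosphoenolpyruvate carboxylase, which fixes carbon in C4 mesophyll, went from 5742 and 5675 to 473 and 479 in B104 and from 5195 and 5130 to 786 and 755 in *ZmNF-YB16* OE, and chlorophyll a-b binding proteins went from 21050 and 20840 to 4624 and 4616 in B104. In these bulk leaves a change of cell makeup and a change per cell cannot be told apart, and the part of the marker change in the results on the 3 genes was not tested. Between the genotypes under normal conditions, chlorophyll a-b binding proteins stood at 16760 and 16520 in *ZmNF-YB16* OE, below B104, and the part of that difference was not tested either.

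**Figure D2:**
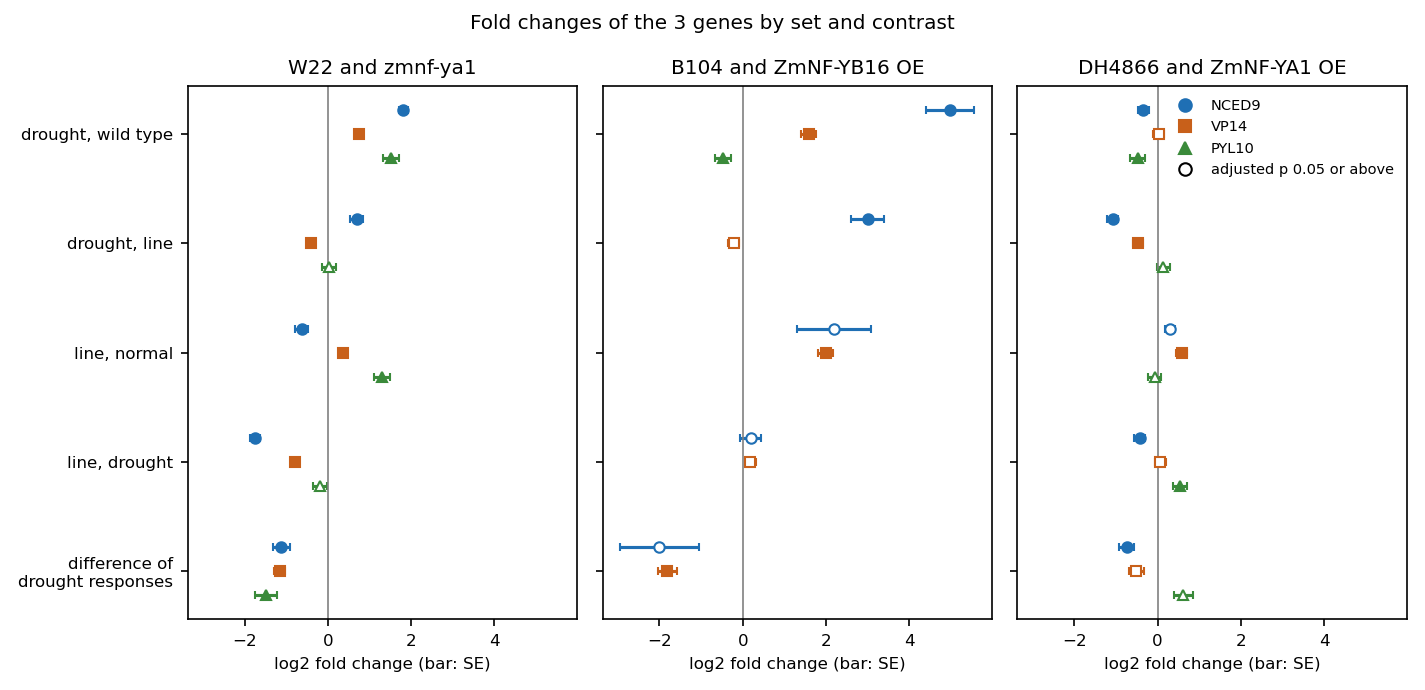
Log2 fold change (horizontal axis, bar: SE) of *NCED9*, *VP14* and *PYL10* in 5 contrasts, 1 panel for each set, with open symbols where the adjusted P was 0.05 or above. All 3 differences of drought response lay below 0 in the W22 set (-1.12, -1.16 and -1.49), and the *PYL10* contrasts that involve *ZmNF-YB16* OE are not drawn because its counts there were 0 and 1. The B104 value of *NCED9* under normal conditions rests on 2 counts.

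In the DH4866 set *NCED9* fell with drought, where it had risen in the other inbred lines. *NCED9* had an FPKM of 3.18 and 3.27 in normal DH4866 and 2.75 and 2.25 under drought, a fall of -0.34 (SE 0.13, adjusted P = 0.0313). In the libraries labelled *ZmNF-YA1* OE it was 4.26 and 4.11 under normal conditions and 1.93 and 1.80 under drought, a fall of -1.08 (SE 0.13, adjusted P = 4.97e-06). The groups did not overlap in either genotype, and the difference of the drought responses was -0.74 (SE 0.18, adjusted P = 0.0117). The line differed from DH4866 by 0.31 (SE 0.12, adjusted P = 0.0888) under normal conditions and by -0.43 (SE 0.14, adjusted P = 0.0384) under drought. The fall in DH4866 was no longer called without the first or second normal DH4866 library (-0.34 and -0.35) or the second stressed one (-0.20), nor with DESeq2 (adjusted P = 0.213). The difference under drought was not called without the first stressed DH4866 library (-0.28) or either stressed library of the line (-0.48 and -0.39), and that of the responses was not called without the first stressed DH4866 library (-0.58) or the second stressed library of the line (-0.69). DESeq2 called neither the difference under drought (adjusted P = 0.277) nor that of the responses (adjusted P = 0.166), and the former was also not called without the filter on low counts (adjusted P = 0.0605) or in limma on log2(FPKM + 1) or log2(FPKM + 0.1) (adjusted P = 0.0871 and 0.0798). The fall in the line held in each of these fits.

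*VP14* stood at 8.39 and 7.28 in normal DH4866 and 8.51 and 7.18 in stressed DH4866, ranges that overlapped, and the drought response was 0.03 (SE 0.13, adjusted P = 0.861). The libraries labelled *ZmNF-YA1* OE had 13.65 and 11.04 under normal conditions and 9.17 and 7.47 under drought. Their unstressed group was the highest of the set and fell with drought by -0.48 (SE 0.12, adjusted P = 0.00415). It exceeded normal DH4866 by 0.58 (SE 0.13, adjusted P = 0.00429), while the stressed groups differed by 0.07 (SE 0.13, adjusted P = 0.749). The difference of the drought responses was -0.51 (SE 0.18, adjusted P = 0.0684). The fall was not called without the first normal (-0.28) or the second stressed (-0.34) library of the line, and the excess was not called without the second normal DH4866 library (0.45) or the first normal library of the line (0.38). The difference of responses was called without the first normal DH4866 library (-0.64, adjusted P = 0.0459) or the second normal library of the line (-0.66, adjusted P = 0.0242).

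*PYL10* had an FPKM of 5.20 and 5.16 in normal DH4866 and 3.81 and 3.48 under drought, a fall of -0.48 (SE 0.17, adjusted P = 0.0219). The labelled *ZmNF-YA1* OE libraries had 4.57 and 5.81 under normal conditions and 4.72 and 6.06 under drought. Their 2 groups overlapped, the response being 0.14 (SE 0.16, adjusted P = 0.454), and stressed DH4866 alone was low. The line was higher than DH4866 by 0.55 (SE 0.17, adjusted P = 0.0285) under drought, against -0.07 (SE 0.16, adjusted P = 0.815) under normal conditions, and the responses differed by 0.62 (SE 0.23, adjusted P = 0.0778). DESeq2 called neither the fall (adjusted P = 0.138) nor the difference under drought (adjusted P = 0.239). The fall was also lost without the first or second normal DH4866 library (-0.45 and -0.50) or the second stressed one (-0.41), and the difference under drought without either stressed DH4866 library (0.61 and 0.48) or the second stressed library of the line (0.35). The difference of responses was called without the first stressed library of the line (0.79, adjusted P = 0.0496).

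In this set 2 of the 3 genes fell with drought in DH4866 (31.6% of all tested genes called higher, 31.1% lower) and 2 in the labelled line (29.1% called higher, 28.6% lower). Between the genotypes 1 was higher under normal conditions (10.1% called higher, 9.88% lower), and 1 was higher and 1 lower under drought (10.8% called higher, 11.8% lower). The drought response was lower in the line for 1 of 3 (9.4% called lower, 8.67% higher). Summed FPKM of pyruvate phosphate dikinase lay between 14090.35 and 18401.95 over the 8 libraries.

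Across the 12 groups the genes ranked differently. These orders are descriptions, since the sets differ in inbred line, depth and platform. By the study's methods, though not by the labels, the B104 set also differs in leaf, stage and growing site. Mean FPKM of *NCED9* ran from 9.48 in stressed W22 and 4.95 in stressed *ZmNF-YB16* OE down to 0.515 and 0.125 in unstressed *ZmNF-YB16* OE and B104. Neighbours in that order overlapped in their libraries for 2 pairs, stressed B104 (4.20) with the unstressed line labelled *ZmNF-YA1* OE (4.19) and stressed *zmnf-ya1* (2.76) with stressed DH4866 (2.5). For *VP14* most neighbours in the order overlapped, though groups further apart in it need not. Stressed W22 (12.6) overlapped with the unstressed line labelled *ZmNF-YA1* OE (12.3), each of the groups from stressed *ZmNF-YB16* OE (9.57) down to unstressed DH4866 (7.84) overlapped with the next. Stressed *zmnf-ya1* (7.09) did not overlap with unstressed DH4866 next to it but did with stressed DH4866, and unstressed B104 (2.29) stood below all of these. For *PYL10* the B104 groups (20.9 unstressed, 18.1 stressed) headed the order. A block from the labelled *ZmNF-YA1* OE groups (5.39 and 5.19) through unstressed DH4866 (5.18) to stressed W22 (5.15) followed, in which each overlapped with the next. Stressed *zmnf-ya1* (4.42) lay below it, then unstressed *zmnf-ya1* (3.72) and stressed DH4866 (3.65), which overlapped. Unstressed W22 (2.00) and the *ZmNF-YB16* OE groups (0.160 and 0) came last.

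The balance between the 2 NCED genes varied with watering. The FPKM of *VP14* over that of *NCED9* was 2.70 and 2.80 in normal W22 and 1.32 and 1.34 in stressed W22, and it went from 5.26 and 5.77 to 2.69 and 2.46 in *zmnf-ya1*. In *ZmNF-YB16* OE it went from 24.5 and 14.3 to 1.93 and 1.94. In DH4866 it was 2.64 and 2.23 under normal conditions and 3.10 and 3.19 under drought, and in the labelled *ZmNF-YA1* OE line 3.20 and 2.69 and then 4.75 and 4.15. *VP14* was thus the higher of the pair in all 24 libraries, with a ratio that was lower under drought in the W22 and B104 sets and higher in the DH4866 set.

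The other genes of the NCED list were taken by a search of the deposited annotation, which found 14 genes, of which 9, 8 and 9 were tested in the W22, B104 and DH4866 sets. The list includes related carotenoid cleavage dioxygenases, among them *CCD1* (GRMZM2G057243) and *CCD7* (GRMZM2G158657), the latter known for strigolactone synthesis. *NCED9* and *VP14* made up a small part of the summed FPKM of the list, 0.601% and 1.62% in the first normal W22 library and 3.26% and 4.30% in the first stressed one. Most of the sum came from *CCD1* and from GRMZM2G110192 and GRMZM2G150363, annotated as NCED, all 3 of which fell with drought in all 6 genotypes. GRMZM2G110192 went from a mean FPKM of 214.0 to 166.6 in W22, from 505.1 to 107.0 in B104 and from 369.5 to 157.8 in DH4866.

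With drought in W22, 3 genes of this list rose and 6 fell, with a median log2 fold change of -0.87 against 0 over all tested genes. Of all tested genes, 34.8% were called higher and 33.8% lower there. In *zmnf-ya1* 2 rose and 6 fell, with a median of -0.42. In B104 3 rose and 3 fell, with a median of 0.35, and in *ZmNF-YB16* OE 2 rose and 3 fell, with a median of -0.39. In DH4866 none rose and 7 fell (median -0.87), and in the labelled *ZmNF-YA1* OE line none rose and 8 fell (median -0.74). Shares of all tested genes called higher and lower were 28.1% and 29.6% in *zmnf-ya1*, 25.3% and 25.9% in B104, and 25.5% and 25.7% in *ZmNF-YB16* OE. They were 31.6% and 31.1% in DH4866 and 29.1% and 28.6% in the labelled line. *NCED9* had the largest called rise of the list in W22 and B104. The largest called falls were those of GRMZM2G407181 in W22 (FPKM 0.76 and 0.77 to 0.04 and 0.11, -3.16, SE 0.43, adjusted P = 2.23e-05) and in DH4866 (1.43 and 1.28 to 0.04 and 0.02), and of GRMZM2G150363 in B104 (38.67 and 36.98 to 1.35 and 0.45, -5.64, SE 0.18, adjusted P = 2.36e-16). GRMZM2G407181 carries the same viviparous-14 description in the annotation as *NCED9*, and reads that fit both genes had been divided between them by estimation.

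**Figure D3:**
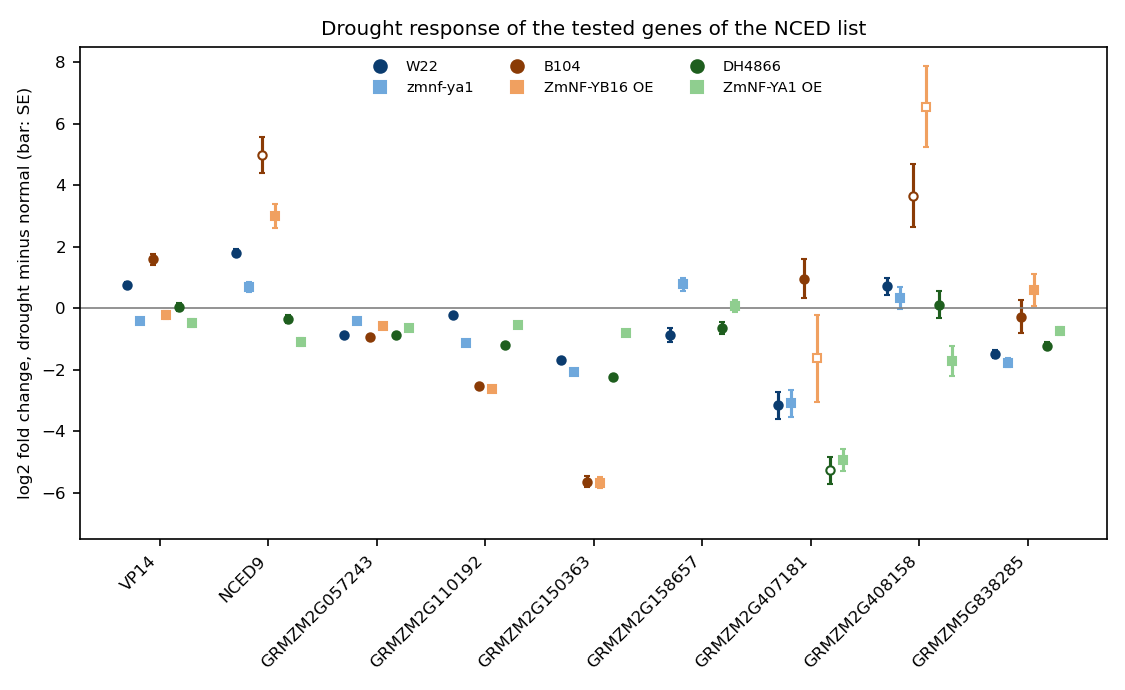
Log2 fold change with drought (vertical axis, bar: SE) of the tested genes of the NCED list in the 6 genotypes, with open symbols where a group held 3 counts or fewer. *NCED9* was above 0 in 4 genotypes and below 0 in DH4866 and the line labelled *ZmNF-YA1* OE, while GRMZM2G057243, GRMZM2G110192 and GRMZM2G150363 lay below 0 in all 6.

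The differences of drought response in the NCED list were called for 6 of 9 genes in the W22 set, 2 higher and 4 lower (15.3% and 22.5% of all tested genes), with a median of -0.37 against -0.05 over all genes. *VP14* had the largest of the lower values (-1.16). *CCD7* had the largest of the higher ones (1.66, SE 0.31, adjusted P = 0.000884), at an FPKM of 1.37 and 1.42 in normal and 0.57 and 0.79 in stressed W22 against 0.84 and 0.86 and then 1.83 and 1.58 in *zmnf-ya1*. In the B104 set 1 was higher and 1 lower (9.13% and 8.57% of all tested genes), *CCD1* (0.37, SE 0.05, adjusted P = 3.48e-05) and *VP14*. In the DH4866 set 2 were higher and 1 lower (8.67% and 9.4% of all tested genes), GRMZM2G150363 leading the former (1.45, SE 0.09, adjusted P = 1.14e-07) and *NCED9* being the latter.

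Among other genes for ABA synthesis the search found 38 members, from zeaxanthin epoxidases to aldehyde oxidases and the molybdenum cofactor sulfurase that activates these, together with related dehydrogenases. Some members are first annotated as other enzymes, such as a lipase (GRMZM2G038075), tropinone reductases and salicylate hydroxylases. With drought 10 rose and 12 fell of 27 tested in W22, 5 rose and 11 fell of 25 in B104, and 13 rose and 8 fell of 27 in DH4866, with medians of -0.10, 0 and 0.33. Of all tested genes, 34.8%, 25.3% and 31.6% were called higher and 33.8%, 25.9% and 31.1% lower. In B104 library size alone gave 9 higher and 9 lower, with a median of 0.30. Several of the extremes were listed in 1 condition only. GRMZM2G087169, a zeaxanthin epoxidase-like gene, was at 0 in normal DH4866 and at 3.13 and 3.77 under drought, and the aldehyde oxidase-like GRMZM2G083186 was at 3.49 and 3.92 in normal DH4866 and at 0 under drought. In W22 GRMZM5G891656, annotated as a salicylate hydroxylase, went from 7.93 and 8.0 to 0. In B104 GRMZM2G004128 fell from 28.38 and 32.18 to 3.90 and 2.74 (-3.46, SE 0.17, adjusted P = 3.05e-13). Of 8 genes annotated for ABA breakdown, 4 were tested in W22, where 1 rose and 1 fell with drought (median -0.23). In B104 3 of 6 rose and 1 fell, and in DH4866 0 of 4 rose and 3 fell. The fall in W22 was that of GRMZM2G126505 (14.41 and 13.26 to 1.86 and 1.5, -2.97, SE 0.11, adjusted P = 5.85e-11). The rise in W22 was that of GRMZM2G179147, a cytochrome P450 (1.42 and 1.69 to 5.93 and 5.76, 2.05, SE 0.13, adjusted P = 8.73e-09). Its response was smaller in *zmnf-ya1* by -1.36 (SE 0.20, adjusted P = 0.000137), at 1.49 and 1.43 and then 2.97 and 2.54.

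The receptor list held 14 genes annotated to the PYR/PYL family, of which 12, 10 and 12 were tested. In unstressed *zmnf-ya1* 11 of 12 receptors were higher than in W22 and none lower (30.2% and 23.4% of all tested genes), with a median of 0.76 against 0.04 over all genes, and *PYL10* was among the highest at 1.30. With library size alone 8 were higher and none lower, with a median of 0.37 against -0.346 over all genes. Summed FPKM of chlorophyll a-b binding proteins was 61540 and 60200 in normal W22 against 88550 and 83170 in normal *zmnf-ya1*, that of pyruvate phosphate dikinase was 17350 and 17310 against 13900 and 15080, and their part in this result was not tested. Under drought 7 were higher in the mutant and none lower (9.5% and 9.79% of all tested genes), with a median of 0.36 (0 over all genes). The summed FPKM of the receptors was 257.0 and 255.5 in normal W22 and 302.5 and 293.8 in normal *zmnf-ya1*, and *PYL10* contributed only 1.63 to 3.95 of it. With drought 5 receptors rose and 1 fell in W22, with *PYL10* as the largest rise and GRMZM2G063882 as the fall (93.84 and 96.33 to 45.30 and 49.84, -0.84, SE 0.07, adjusted P = 9.53e-08). In *zmnf-ya1* 1 rose and 2 fell. With drought 34.8% of all tested genes were called higher and 33.8% lower in W22, and 28.1% and 29.6% in *zmnf-ya1*. Library size alone gave 5 receptors higher and 3 lower in W22 and 4 higher and 1 lower in *zmnf-ya1*, the latter with a median of 0.24. The drought response was lower in the mutant for 5 of 12 receptors and higher for none (22.5% and 15.3% of all tested genes), *PYL10* being the largest at -1.49. With library size alone the split was 2 higher and 4 lower.

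In the B104 set the near absence of *PYL10* from *ZmNF-YB16* OE was not shared by the other receptors with a group mean FPKM of at least 1. Under normal conditions 1 receptor was higher and 2 lower in *ZmNF-YB16* OE (14.6% and 15.7% of all tested genes), with a median of -0.16. Without *PYL10* the summed FPKM of the list was 182.8 and 185.2 in B104 and 190.3 and 174.5 in *ZmNF-YB16* OE. Under drought 2 were higher and 3 lower, with a median of -0.47, and the sums without *PYL10* were 280.9 and 267.4 in B104 and 255.3 and 242.3 in *ZmNF-YB16* OE. *PYL10* supplied 20.19 of 203.0 FPKM in the first normal B104 library. With drought in B104 4 receptors rose and 2 fell (5 and 1 with library size alone), led by GRMZM2G165567 (18.58 and 13.71 to 82.52 and 81.76, 2.17, SE 0.12, adjusted P = 5.09e-12) and GRMZM2G063882 (80.82 and 87.47 to 35.65 and 35.43, -1.51, SE 0.09, adjusted P = 6.79e-12). Of all tested genes, 25.3% were called higher and 25.9% lower there. GRMZM2G102356 had the largest called difference of drought responses (-1.45, SE 0.25, adjusted P = 0.000278), at 5.94 and 7.42 and then 36.49 and 32.69 in B104 against 17.32 and 14.53 and then 29.00 and 31.17 in *ZmNF-YB16* OE. This gene is annotated both to the receptor family and as pathogenesis-related protein 2.

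**Figure D4:**
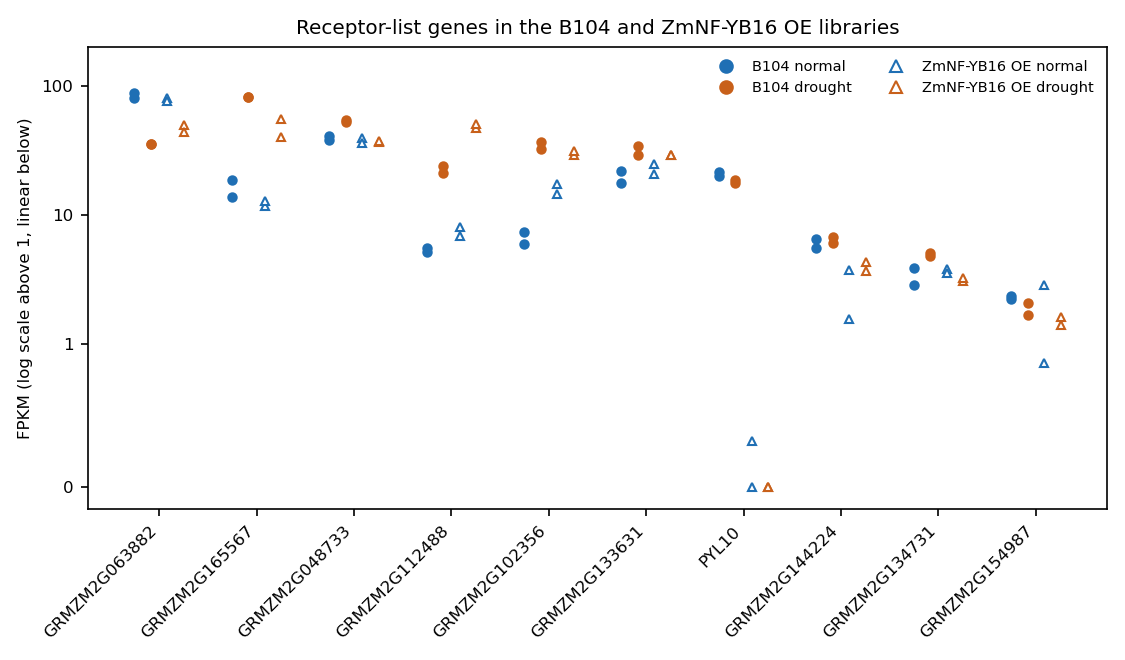
FPKM (log scale above 1, linear below) of the receptor-list genes with a group mean of at least 1 in the B104 set, with 2 points per group, filled for B104 and open for *ZmNF-YB16* OE. *PYL10* was between 17.56 and 21.52 in B104 and at most 0.32 in *ZmNF-YB16* OE, while the other receptors had values above 0 in all groups.

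In the DH4866 set 3 receptors rose and 3 fell with drought in the wild type (median -0.09), and 4 rose and 3 fell in the labelled *ZmNF-YA1* OE line (median 0.07), where library size alone gave 3 higher and 4 lower. With drought 31.6% of all tested genes were called higher and 31.1% lower in DH4866, and 29.1% and 28.6% in the labelled line. Drought responses of the receptors differed between the genotypes for 5 of 12, 3 higher and 2 lower (8.67% and 9.4% of all tested genes). GRMZM2G112488, annotated as pathogenesis-related protein 1-like, had the largest difference (-3.57, SE 0.16, adjusted P = 5.28e-09), at 3.58 and 4.37 and then 12.33 and 12.87 in DH4866 against 29.89 and 31.38 and then 8.34 and 7.26 in the line. GRMZM2G144224, annotated as PYL4-like, had the largest higher value (1.00, SE 0.27, adjusted P = 0.0179).

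Downstream of the receptors, the searches found 16 genes for SnRK2 kinases and 28 for ABA-related bZIP factors, the latter including GRMZM2G348873, first annotated as an RNA helicase. Of 15 kinases tested in W22, 6 rose and 4 fell with drought (median 0.15), led by *SnRK2.7* (GRMZM2G155593, 0.87 and 0.79 to 2.90 and 1.49, 1.31, SE 0.26, adjusted P = 0.000482) and *SnRK2.8* (GRMZM2G138861, -0.53, SE 0.07, adjusted P = 1.40e-05). In B104 6 of 14 rose and 3 fell (median 0.30), GRMZM2G110922 going from 9.53 and 7.99 to 37.84 and 40.22 (1.84, SE 0.11, adjusted P = 1.34e-11). In DH4866 4 of 15 rose and 3 fell (median 0.17), with *SnRK2.7* again the largest rise (1.40, SE 0.21, adjusted P = 3.39e-05). The drought responses of the kinases differed between genotypes for 3 of 15 in the W22 set, 0 of 14 in the B104 set and 2 of 15 in the DH4866 set. Shares of all tested genes called higher and lower there were 15.3% and 22.5%, 9.13% and 8.57%, and 8.67% and 9.4%. Of the bZIP factors, 5 of 20 rose and 9 fell in W22, 8 of 22 rose and 4 fell in B104, and 5 of 21 rose and 8 fell in DH4866. With drought 34.8% of all tested genes were called higher and 33.8% lower in W22, 25.3% and 25.9% in B104, and 31.6% and 31.1% in DH4866. Library size alone gave 3 higher and 10 lower bZIP factors in W22, 12 higher and 3 lower in B104, and 7 higher and 1 lower kinases in B104 and 3 higher and 4 lower in DH4866. GRMZM5G858197 rose most in B104 (7.43 and 6.78 to 41.82 and 35.78, 2.18, SE 0.16, adjusted P = 4.03e-10).

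The genes whose pattern was most like that of each member were sought among 19792 genes tested in all sets, by Pearson's r of log2(TMM CPM + 1) centred within each set over 24 libraries. These correlations are descriptions, since the libraries share their groups. For *NCED9* they were an invertase gene (GRMZM2G089836, r = 0.972), GRMZM2G105466, annotated to riboflavin synthesis (0.959), and GRMZM2G177386, annotated as a protein phosphatase 2C (0.953). The invertase gene went from 125.01 and 114.12 to 425.44 and 382.55 with drought in W22 and from 75.11 and 70.70 to 182.29 and 170.49 in *zmnf-ya1*, and r was 0.955, 0.985 and 0.903 within the W22, B104 and DH4866 sets. In the same sets r was 0.885, 0.992 and 0.854 for GRMZM2G105466 and 0.966, 0.988 and 0.291 for GRMZM2G177386. For *VP14* the genes were GRMZM2G401511 (0.907), GRMZM2G042893, annotated as MYC2 (0.907), and GRMZM5G889052, annotated as a peroxiredoxin (0.895). Their r was 0.644, 0.692 and 0.853 in the W22 set. It was 0.952, 0.982 and 0.933 in the B104 set and 0.892, 0.711 and 0.88 in the DH4866 set. With drought in *zmnf-ya1*, where *VP14* fell, GRMZM2G401511 went from 5.29 and 4.91 to 7.19 and 5.97. There GRMZM2G042893 went from 6.73 and 7.52 to 9.68 and 9.5, and GRMZM5G889052 from 15.88 and 16.05 to 8.96 and 8.83. For *PYL10* the likeness was closest in the B104 set. GRMZM2G162127 (0.973), GRMZM2G087101 (0.967) and GRMZM2G329459 (0.963) had r of 0.992, 0.989 and 0.991 there, of 0.843, 0.1 and 0.45 in the W22 set and of -0.397, 0.804 and -0.034 in the DH4866 set. GRMZM2G087101 had an FPKM of 33.51 and 31.09 in normal and 59.20 and 54.14 in stressed B104 and was at 0 in all 4 *ZmNF-YB16* OE libraries. On log2(FPKM + 1) the top 3 shared 1 gene with these for *NCED9*, 1 for *VP14* and 3 for *PYL10*.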

How the data were processed

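RNA-seq of 24 maize leaf libraries in 3 sets was used. Per the study's methods, the authors filtered reads with SOAPnuke, aligned them with Bowtie2 to B73 V3 gene models and estimated expression with RSEM. They deposited expected counts, which carry no scaling between libraries, and FPKM, scaled to transcript length and mapped fragments. RSEM divides reads that fit several genes, so the values of near-identical NCED or receptor genes are uncertain in assignment. Genes missing from a file were taken as 0. All columns of library values mapped to a sample. The authors' annotation columns gave the gene lists, and the B104 files carry none, so that of the other sets was used. Names were also matched to the RefSeq table of another assembly, by identifier for 18349 of 35105 annotated genes, and no coordinates or sequences were used. The values given for *PYL10* are those of GRMZM2G405064; that table gives the name PYL10 to GRMZM2G063882 and GRMZM2G165567.

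Expected counts were rounded. Each set was fitted on its own with edgeR 4.0.16 in R 4.3.3 (filter on low counts by group, TMM, quasi-likelihood, 4 groups), leaving 24159 genes for W22, 21970 for B104 and 24604 for DH4866. The biological coefficient of variation was 5.29%, 6.18% and 5.01%. Contrasts were drought within genotype, line against wild type within condition, and their interaction. A difference was called at an adjusted P below 0.05. Library totals were 20863136 to 21178202, 3429314 to 5608889 and 20696448 to 21289711. Floors of 3 counts and exact 95% intervals for low counts cover counting error only, since reads carry no molecular identifiers. On simulated data with 200 changed genes the fit recovered 199, 198 and 200, with 8 false calls each. Those changes were large, were set only in genes with ample counts, and shared the same spread over all genes. The recovery therefore cannot speak for small changes, for genes with few counts or for contrasts in which many genes change. Replicates differed by more than sampling noise (chi-squared per degree of freedom 1.32 to 4.87).

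The 3 genes and the lists were chosen with earlier results of these data known. Lists were text searches for NCEDs, other ABA synthesis, ABA breakdown, receptors, SnRK2 kinases, ABA bZIP factors and clade A phosphatases, the last finding no gene. They hold 118 genes, some of them only related enzymes or genes first annotated as something else. Named list genes are the called gene with the largest rise and the largest fall per list in the wild-type drought response and the interaction, and the 3 genes most like each member. *CCD1*, GRMZM2G110192, GRMZM2G150363 and, in the B104 set, GRMZM2G087101 were also described after their values were seen, and some genes meeting the rule are left out for length. Alternatives were RLE size factors, library size alone, DESeq2 1.42.0, no filter, limma 3.58.1 on log2(FPKM + 1) and log2(FPKM + 0.1), a replicate block and each library left out. Python 3.11.15 with pandas 2.3.3, numpy 2.4.6, scipy 1.17.1 and matplotlib 3.10.9 was used for summaries and figures.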

Additional observations from a re-analysis of the deposited data

Results flagged for a closer look

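The drought response differed between the line and its wild type, by the interaction term of the edgeR model, for *NCED9* (-1.12), *VP14* (-1.16) and *PYL10* (-1.49) in the W22 set, for *VP14* (-1.81) in the B104 set and for *NCED9* (-0.74) in the DH4866 set. In each case the response of the line was the lower one. The first 4 of these kept their call and direction in all alternatives tried, though that of *NCED9* in the W22 set was -0.75 with library size alone. That of *NCED9* in the DH4866 set was lost with DESeq2 and on leaving out either of 2 libraries. No group had enough libraries for a test of an outlying one.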

How the results depend on the processing

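Of 43 values of the 3 genes over the contrasts, 29 were called and 22 kept their direction and their side of the threshold in every alternative run. RLE size factors changed none. Library size alone turned the *VP14* difference of *zmnf-ya1* from W22 under normal conditions to -0.04 (limma -0.03 and -0.04 with pseudocounts of 1 and 0.1) and the *VP14* drought response of *ZmNF-YB16* OE to 0.03 (limma 0.03 and 0.04). It lost the *VP14* drought response of *zmnf-ya1* (-0.18, limma -0.16 and -0.18) and the *PYL10* fall in B104 (-0.19, limma -0.19 and -0.20), and gained the *NCED9* difference of the labelled *ZmNF-YA1* OE line under normal conditions (0.38) and the *VP14* interaction of that set (-0.57). DESeq2 lost the *PYL10* fall in B104 (-0.49) and, in the DH4866 set, the *NCED9* drought response (-0.34), line difference under drought (-0.44) and interaction (-0.73), and the *PYL10* drought response (-0.48) and line difference under drought (0.54). Without the filter the last (0.55) and the *NCED9* line difference under drought (-0.43) were lost, and limma lost the latter too (-0.29 and -0.40). The cause of these losses was not tested. Correlations of deviations between same-numbered libraries were 0.0298 to 0.0973 for W22 and *zmnf-ya1*, -0.0199 to 0.0284 among B104 and *ZmNF-YB16* OE groups, and all positive for the third set at 0.0604 to 0.195, not above 0.1 for every pair in any set, so the libraries were taken to share only a number, and a replicate block changed 1 call, the *VP14* interaction of the DH4866 set (-0.51, adjusted P = 0.000785).

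With each library left out in turn, values that changed call or sign ranged as follows. In the DH4866 set *NCED9* ranged from -0.49 to -0.20 for drought in DH4866, -0.57 to -0.28 for the line under drought and -0.88 to -0.58 for the interaction. *VP14* ranged from -0.10 to 0.15 for drought in DH4866, -0.63 to -0.28 for drought in the line, 0.38 to 0.73 and -0.08 to 0.21 for the line under normal conditions and drought, and -0.67 to -0.31 for the interaction. *PYL10* ranged from -0.54 to -0.41 and -0.05 to 0.31 for drought in DH4866 and the line, -0.24 to 0.05 and 0.35 to 0.71 for the line under normal conditions and drought, and 0.43 to 0.79 for the interaction. In the B104 set *NCED9* ranged from 3.73 to 8.60 for drought in B104, called throughout, 0.93 to 5.80 for the line under normal conditions and -5.61 to -0.75 for the interaction, and *PYL10* from -0.52 to -0.44 for drought in B104. In the W22 set *PYL10* ranged from -0.12 to 0.14 for drought in *zmnf-ya1*. A lone library left in a group is assumed to vary like the other groups. Of 2340 list counts under the alternatives, 2044 stayed within 1.5 times.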
